A study of Mus musculus with 12 samples.

Results

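The nuclear long noncoding RNAs described here are 8 genes, Malat1, Neat1, Meg3, Rian, Mirg, Miat, Kcnq1ot1 and Snhg11, chosen by name out of 41592 gene symbols found once in both days' tables. All 8 were listed at both days, 7 had enough counts to be tested at both days, and Mirg was too low at either. RNA was measured in mouse neural progenitor cells (NPCs), dividing cultured cells that can give rise to neurons and glia, to ask what changes when the nuclear lamina protein lamin B1 is lost. The 12 libraries formed 4 groups of 3: WT cells (LaminB1+/+; Ai3) and cKO cells (LaminB1fl/fl; Ai3), each 5 or 9 days after lentiviral delivery of pSox2-Cre, in which a Sox2 promoter drives Cre recombinase. All cells were of the strain C57BL/6, carried the Cre-dependent EYFP reporter Ai3, received the virus, grew with 10 ng/ml each of EGF and FGF-2, and were sorted for EYFP, so the WT cells also expressed Cre and only cells in which Cre had acted were sequenced. The labels leave unsaid whether the 3 replicates are separate cultures or repeats of one, so each p-value below sets a difference against the spread of these libraries, which could be technical spread. Expression from a pool of sorted cells cannot tell fewer cells of a type from less RNA per cell.

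Long noncoding RNAs of this group stay largely in the nucleus. Malat1 is a very abundant RNA of nuclear speckles, bodies rich in splicing factors, and Neat1 is the scaffold around which paraspeckle proteins assemble. Miat (also called Gomafu) marks its own nuclear domain in neural cells and binds splicing factors through repeated ACUAAC motifs. Meg3, Rian and Mirg are transcribed one after the other from the maternal copy of the imprinted Dlk1-Dio3 domain, where Rian hosts small nucleolar RNAs and Mirg hosts microRNAs. Kcnq1ot1 is transcribed from the paternal copy, antisense to Kcnq1, and silences neighbouring genes on that copy. Snhg11 is a host gene of small nucleolar RNAs with strong expression in neurons.

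In the GENCODE M21 annotation of GRCm38, Malat1 (ENSMUSG00000092341) lies at chr19:5795690-5802672 and Neat1 (ENSMUSG00000092274) at chr19:5824708-5845478, both on the minus strand with 22035 bases between them. On chromosome 12, plus strand, Meg3 (ENSMUSG00000021268) lies at chr12:109541001-109571726, Rian (ENSMUSG00000097451) at chr12:109603940-109661716 and Mirg (ENSMUSG00000097391) at chr12:109729764-109749460. Miat (ENSMUSG00000097767) lies at chr5:112213228-112229395 on the minus strand. Kcnq1ot1 (ENSMUSG00000101609) lies at chr7:143203458-143296549 on the minus strand, inside the Kcnq1 gene of the other strand. Snhg11 (ENSMUSG00000044349) lies at chr2:158375638-158386145 on the plus strand and is the 1 member that M21 types as protein-coding.

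Miat had the largest fold change among the members that passed the test described below, so its motif repeats are shown first. The longest annotated Miat transcript, Miat-205, has 9163 bases and holds ACTAAC (the DNA spelling of the motif, read on the transcript strand) 11 times, between bases 4942 and 6852. Of 6894 GENCODE M21 transcripts of 5000 to 15000 bases, 3 (0.0435%) hold it as often or more, and the median is 1. The 2 windows of 150 bases with the most matches, 4 each, lie in the last of its 7 exons, at chr5:112217310-112217459 and chr5:112216741-112216890, and the motif is in capitals.
Miat bases 4932 to 5081: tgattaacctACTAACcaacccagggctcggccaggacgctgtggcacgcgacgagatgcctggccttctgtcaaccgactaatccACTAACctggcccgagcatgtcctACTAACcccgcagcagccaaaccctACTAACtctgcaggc
Miat bases 5501 to 5650: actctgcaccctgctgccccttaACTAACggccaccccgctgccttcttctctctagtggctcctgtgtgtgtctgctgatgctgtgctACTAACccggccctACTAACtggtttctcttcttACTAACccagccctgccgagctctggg
Among the other members the longest annotated transcript held the motif 0 times in Malat1 and Rian, 1 time in Meg3, Mirg and Snhg11, and 4 times in Neat1. It occurred 20 times in Kcnq1ot1, whose transcript has 93092 bases. Per kilobase that is 1.20 in Miat, and the next highest was Mirg with 0.262.

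The 3′ ends of Neat1 and Malat1 are shown because the labels give polyA RNA as the molecule and these RNAs differ in how they end. Against that label, 6 of the 12 libraries had 14.1% to 69.7% of counts on structural RNA features, most of them RNAs without a poly(A) tail. The short Neat1 form ends in a usual poly(A) tail after an AATAAA signal. The long Neat1 form and Malat1 end in a genome-encoded A-rich tract that pairs with U-rich stretches upstream. The last 120 bases of the short form Neat1-202 (chr19:5842307-5842426), the last 120 of the long form Neat1-201 (chr19:5824708-5824827) and the 120 bases of Malat1-201 that end with its A-rich tract (chr19:5795982-5796101) are given from GENCODE M21, all from the minus strand. Capitals mark the AATAAA signal in the first, and in the other 2 every stretch of 8 or more bases that they share, found by comparing these windows.
Neat1-202 end: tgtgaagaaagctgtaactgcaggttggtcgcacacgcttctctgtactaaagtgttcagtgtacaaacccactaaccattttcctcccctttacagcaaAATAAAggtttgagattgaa
Neat1-201 end: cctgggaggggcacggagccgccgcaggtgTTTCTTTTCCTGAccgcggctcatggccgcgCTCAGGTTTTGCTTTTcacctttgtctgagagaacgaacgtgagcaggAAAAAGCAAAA
Malat1-201 tract: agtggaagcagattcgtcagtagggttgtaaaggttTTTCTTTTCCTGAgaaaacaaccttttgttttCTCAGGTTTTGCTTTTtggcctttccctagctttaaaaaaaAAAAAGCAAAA
The 2 windows shared 3 such stretches, the longest of 16 bases. The last 11 bases of Neat1-201 occurred in 241 (1.97%) of 12234 genes with a transcript of at least 3000 bases, and the 16-base stretch followed within 120 bases by those 11 in 2, Malat1 and Neat1. The window and the shortest stretch counted were set after the sequences were seen, so these counts are a description.

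The promoters of Miat, Meg3 and Snhg11 are shown because these 3 genes rose together at day 9. The RefSeq table (GRCm38.p6), which has an entry for 7 of the 8 members, gives 300 bases around each start, at chr5:112228899-112229198 (minus strand), chr12:109540746-109541045 (plus strand, the upstream of 2 Meg3 entries) and chr2:158375463-158375762 (plus strand). Capitals mark matches on either strand to 6 motifs: TGACGTCA (the cyclic AMP response element), TATAAA (the TATA box), ATTGG (the CCAAT box), GGGCGG (the GC box), CCGGAAGT (an ETS site) and CACGTG (an E-box).
Miat promoter: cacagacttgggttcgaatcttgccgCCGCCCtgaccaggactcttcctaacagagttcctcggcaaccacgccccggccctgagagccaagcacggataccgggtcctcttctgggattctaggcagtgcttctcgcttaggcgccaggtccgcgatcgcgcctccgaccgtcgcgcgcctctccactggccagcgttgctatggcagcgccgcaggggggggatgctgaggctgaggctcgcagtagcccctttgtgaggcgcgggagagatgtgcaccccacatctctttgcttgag
Meg3 promoter: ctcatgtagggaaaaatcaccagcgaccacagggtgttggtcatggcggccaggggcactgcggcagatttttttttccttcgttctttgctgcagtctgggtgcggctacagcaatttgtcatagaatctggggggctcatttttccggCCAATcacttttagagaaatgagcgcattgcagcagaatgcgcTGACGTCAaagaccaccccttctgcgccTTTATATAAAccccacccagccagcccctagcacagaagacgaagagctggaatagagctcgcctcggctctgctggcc
Snhg11 promoter: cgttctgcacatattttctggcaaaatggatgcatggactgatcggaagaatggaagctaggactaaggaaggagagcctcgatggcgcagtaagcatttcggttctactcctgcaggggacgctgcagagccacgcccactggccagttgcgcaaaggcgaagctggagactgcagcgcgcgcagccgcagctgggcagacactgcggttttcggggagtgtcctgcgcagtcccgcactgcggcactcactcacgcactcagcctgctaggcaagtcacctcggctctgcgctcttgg
The Meg3 window held TGACGTCA 1 time, which 1.79% of 32851 RefSeq promoter windows hold. It also held ATTGG 1 time (37.4% of windows) and TATAAA 2 times, overlapping on opposite strands (13.6% of windows). The Miat window held GGGCGG 1 time (35.7% of windows), and the Snhg11 window held none of the 6. None of the 3 windows held CCGGAAGT (3.89% of windows) or CACGTG (7.15% of windows). CG dinucleotides numbered 25 in Miat, 21 in Snhg11 and 13 in Meg3, against a median of 7 over all windows.

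Library totals ran from 26720476 to 32127629 counts at day 5, from 24412935 to 24662809 in WT at day 9, and in cKO at day 9 from 13315273 to 22988447. The share of counts on 9 structural RNA features (ribosomal, 7SK and 7SL RNA and the like, with Lars2) was 0.0738% to 0.506% in 5 day 5 libraries and 14.1% in cKO replicate 2. At day 9 the WT libraries had 15.7%, 34.6% and 17.7%. In cKO, replicates 1 and 3 had 69.7% and 68.3% and stood apart from replicate 2 with 0.349%. Levels below are given in CPM, which uses TMM factors to put the libraries of a day on a common scale, or in TPM. The TPM values divide by transcript length and use no TMM factors. Lmnb1, the targeted gene, fell from 263.6 ± 21.7 to 41.2 ± 3.65 CPM at day 5 and from 184.4 ± 27.2 to 35.5 ± 3.44 CPM at day 9 (means ± SD, n = 3), and no cKO library overlapped WT. All 11 progenitor markers were tested at both days, and Aif1, C1qa and C1qb, which define microglia, were at 0 in every library, and the 10 microglia and macrophage markers summed to at most 3.30 CPM.

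Per length, Malat1 was the highest member in every group, with a mean of 51.5 ± 17.8 TPM in WT at day 5 and 195.3 ± 77.9 TPM in WT at day 9 (SD, n = 3). At day 5 in WT, Rian followed with 6.36 ± 4.28 TPM, Miat with 2.16 ± 1.62 TPM and Meg3 with 1.997 ± 1.58 TPM, and neighbours from Rian downwards overlapped in range. Snhg11, Neat1, Mirg and Kcnq1ot1 had means between 0.283 and 0.71 TPM there. At day 9 in WT the order was Malat1, Miat (6.96 ± 1.98 TPM), Rian (3.62 ± 0.271 TPM), Snhg11 (1.13 ± 0.174 TPM), Meg3 (0.907 ± 0.325 TPM), Neat1, Kcnq1ot1 and Mirg. Malat1, Miat and Rian did not overlap their next neighbour, while Snhg11 and Meg3 did (1 to 1.33 and 0.58 to 1.23 TPM). In cKO at day 9 Meg3 stood above Rian in mean TPM, with overlapping ranges. Levels were not tested between days, because each day had its own tables and day and table cannot be told apart.

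**Figure D1:**
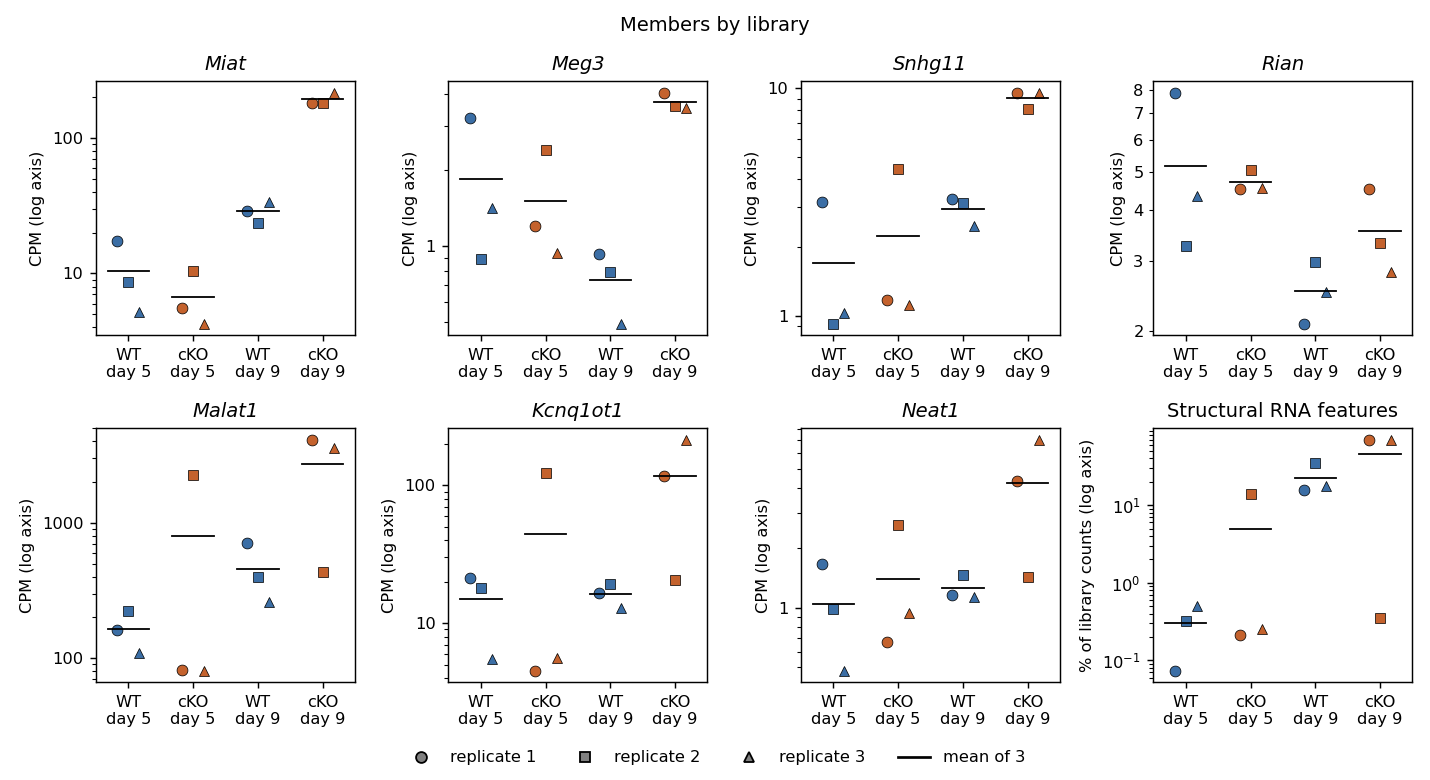
Each panel shows 1 gene in CPM on a log axis (the last panel the structural RNA share in % of counts), with 1 point per library, blue for WT and orange for cKO, and the line at the mean of 3. Miat, Meg3 and Snhg11 separate the groups at day 9 in all libraries, while Malat1, Kcnq1ot1 and Neat1 are high in cKO replicates 1 and 3 and lower in replicate 2.

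At day 9, 4 of the 7 tested members rose in cKO and none fell: Miat, Meg3, Snhg11 and Neat1. Over all 14617 genes tested at day 9, 21% passed as higher and 22.6% as lower in edgeR's quasi-likelihood test, 43.6% in all. With library totals as the only scaling no member passed, the median of all genes moved from 0.01 to -0.51, and 163 genes passed as higher against 509 as lower, where TMM gave 3070 and 3308. With limma on log2(TPM + 1) no member passed either, the median was -0.91, and 36 genes passed as higher and 287 as lower. All 7 members stood above the median gene under TMM and under library totals, by 0.47 to 2.83 and by 0.44 to 2.65 on the log2 scale, as did the 5 that passed the filter of the TPM fit, by 0.62 to 2.48. Without that filter Rian lay below the median gene, at -0.145, and the other 6 above it. In CPM all 3 cKO libraries lay above all 3 WT libraries for Miat, Meg3, Snhg11 and Kcnq1ot1, a pattern that 27.6% of tested genes showed. No member showed the opposite pattern of 30.2% of genes.

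Miat, the neural splicing-factor-binding RNA shown above, had 29.2, 23.7 and 34.0 CPM in WT replicates 1 to 3 at day 9, against 181, 183 and 217 CPM in cKO replicates 1 to 3, and values below keep this order. In CPM the lowest cKO library was above the highest WT library by a wide margin, and cKO replicate 2 lay with the other 2. In TPM, which uses no TMM factors, Miat was at 7.61, 4.74 and 8.53 in WT, against 11.3, 65.6 and 14.3 in cKO. The log2 fold change was 2.74 ± 0.156 (SE), a 6.69-fold rise, with an adjusted p of 1.61e-05 (edgeR, Benjamini-Hochberg). Without cKO replicates 1 and 3 it was 2.63 (edgeR adjusted p = 0.00018), a fit that leaves 1 cKO library, here and below, and assumes that it varies like the WT libraries.

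Meg3, the first RNA of the Dlk1-Dio3 domain, was low: 0.932, 0.789 and 0.494 CPM in WT, against 4.05, 3.60 and 3.52 CPM in cKO at day 9. The groups did not overlap in CPM, and the values rest on 17 to 33 counts per WT library and 25 to 143 per cKO library. In TPM the groups overlapped, with 1.23, 0.91 and 0.58 in WT and 2.22, 7.59 and 1.09 in cKO. Meg3 rose by 2.32 ± 0.317 on the log2 scale (edgeR adjusted p = 0.000954). Without cKO replicates 1 and 3 the change was 2.25 (edgeR adjusted p = 0.00575).

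Rian, the snoRNA host downstream of Meg3, was at 2.09, 2.98 and 2.50 CPM in WT, against 4.52, 3.32 and 2.81 CPM in cKO at day 9. The groups overlapped, and its log2 fold change of 0.48 ± 0.267 did not pass the test (edgeR adjusted p = 0.168). With library totals as the only scaling, Rian's change was -0.07, and limma on log2(TPM + 1) gave -0.29, so its direction depended on the scaling. Mirg, the microRNA host at the end of the row, had 1, 2 and 2 counts in WT and 0, 3 and 0 in cKO at day 9 and 1 to 8 counts per library at day 5, too few to test.

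Because Meg3 and Rian come from 1 domain, their ratio within a library was compared, which no scaling between libraries can move. At day 9 the libraries held 2.24, 3.77 and 5.06 Rian counts per Meg3 count in WT and 1.12, 0.923 and 0.8 in cKO. Every cKO library lay below every WT library. The difference in log2 ratio was -1.90, with p = 0.1 in a two-sided exact permutation test, the smallest p that 3 against 3 allow, and an adjusted p of 0.8 over the 16 ratios and lengths tested. At day 5 the ratios were 2.45, 3.65 and 3.07 in WT and 3.76, 2.10 and 4.85 in cKO, and the difference of 0.16 was within the spread (exact permutation p = 0.7).

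Snhg11, the neuronal snoRNA host, was at 3.25, 3.12 and 2.47 CPM in WT, against 9.51, 8.07 and 9.57 CPM in cKO at day 9. The groups did not overlap in CPM, and all 3 cKO libraries lay close together. In TPM the groups overlapped, with 1.33, 1.07 and 1 in WT and 0.96, 4.4 and 1.15 in cKO. The log2 fold change was 1.61 ± 0.188, a 3.05-fold rise (edgeR adjusted p = 0.000446). Without cKO replicates 1 and 3 it was 1.42 (edgeR adjusted p = 0.00917).

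**Figure D2:**
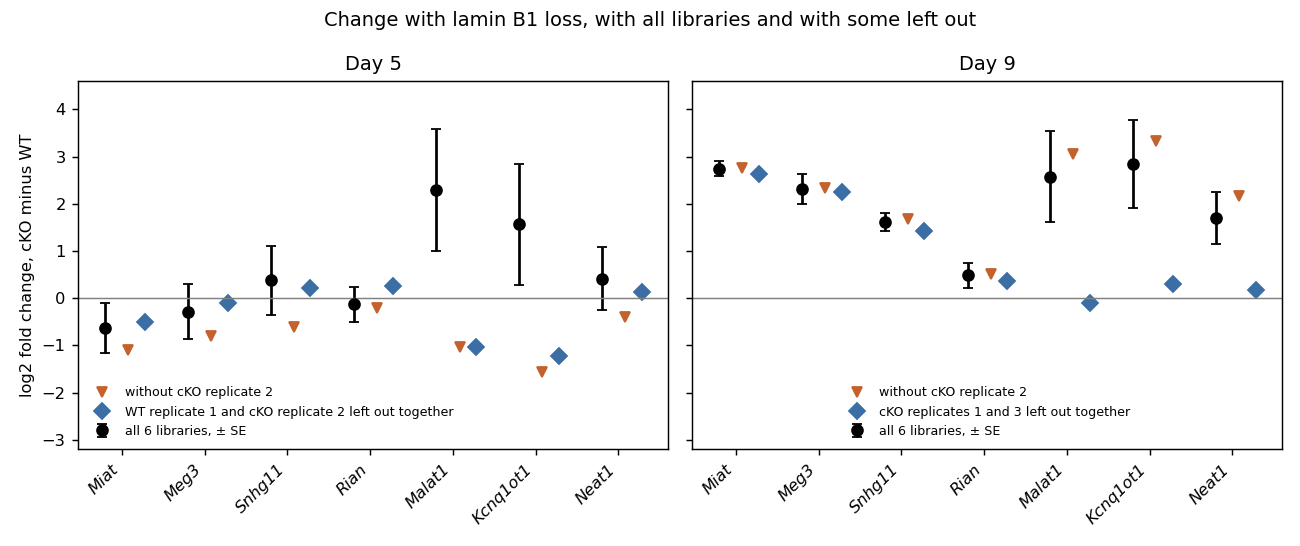
Log2 fold change (cKO minus WT) of the 7 tested members at day 5 and day 9, black circles with bars of 1 SE for all 6 libraries and coloured points with libraries left out. At day 9 Miat, Meg3 and Snhg11 keep values of 1.42 or more without cKO replicates 1 and 3, while Malat1, Kcnq1ot1 and Neat1 fall to between -0.09 and 0.31.

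Malat1, the speckle RNA, was at 704, 395 and 260 CPM in WT, against 4115, 435 and 3549 CPM in cKO at day 9. Replicates 1 and 3 of cKO were far above WT and replicate 2 was inside the WT range. The log2 fold change of 2.58 ± 0.966 did not pass the test (edgeR adjusted p = 0.0896). It passed without cKO replicate 2, at 3.06 (edgeR adjusted p = 0.00818), and was -0.09 without cKO replicates 1 and 3 (edgeR adjusted p = 0.935).

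Kcnq1ot1, the antisense silencer, was at 16.4, 19.4 and 12.9 CPM in WT, against 118, 20.5 and 214 CPM in cKO at day 9. In CPM replicate 2 of cKO lay just above the highest WT library. In TPM Kcnq1ot1 was at 0.43, 0.4 and 0.34 in WT and 0.73, 0.75 and 1.42 in cKO. There replicate 2 lay beside replicate 1 and above all WT libraries, so its place near WT depended on the scaling. The log2 fold change was 2.84 ± 0.929 (edgeR adjusted p = 0.0675). It was 3.34 without cKO replicate 2 (edgeR adjusted p = 0.00117) and 0.31 without cKO replicates 1 and 3 (edgeR adjusted p = 0.392). DESeq2 called both genes as higher with all 6 libraries (adjusted p of 0.0143 for Malat1 and 0.00309 for Kcnq1ot1).

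Neat1, the paraspeckle scaffold, was at 1.16, 1.47 and 1.13 CPM in WT, against 4.37, 1.43 and 7.04 CPM in cKO at day 9. In TPM it was at 0.59, 0.42 and 0.51 in WT and 0.22, 1.46 and 0.32 in cKO. There replicates 1 and 3 of cKO lay below every WT library and replicate 2 was the highest. Neat1 passed the test on counts at 1.71 ± 0.548 (edgeR adjusted p = 0.0398), although cKO replicate 2 was inside the WT range in CPM. Without cKO replicates 1 and 3 the change was 0.17 (edgeR adjusted p = 0.765), and without cKO replicate 3 alone it was 1.11 (edgeR adjusted p = 0.127). Leaving out cKO replicate 1 or any 1 WT library also ended the call, with log2 fold changes of 1.63 to 1.84 (edgeR adjusted p from 0.0926 to 0.107).

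The 2 libraries in which CPM of Malat1, Kcnq1ot1 and Neat1 was high were those with 69.7% and 68.3% of counts on structural RNA. At day 5 the 1 library with 14.1% on structural RNA, cKO replicate 2, was likewise the highest for these 3 genes. It was also the highest for Snhg11, at 4.42 CPM. Next highest for Kcnq1ot1, Neat1 and Snhg11 at day 5 was WT replicate 1, which had the lowest share, 0.0738%. The WT libraries at day 9, with 15.7% to 34.6%, had lower CPM of Malat1, Kcnq1ot1 and Neat1 than cKO replicates 1 and 3 of day 9. Malat1 in WT replicate 1 of day 9, at 704 CPM, was above cKO replicate 2 of day 9, at 435 CPM. Malat1 was also at 147 to 285 TPM in WT at day 9. In the day 5 libraries other than cKO replicate 2 it was at 21.8 to 68.5 TPM, a difference between days that was not tested. What part structural RNA had in these values was not tested. For Miat, Meg3 and Snhg11 the change in CPM was about as large in cKO replicate 2 of day 9, which had 0.349% structural RNA.

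**Figure D3:**
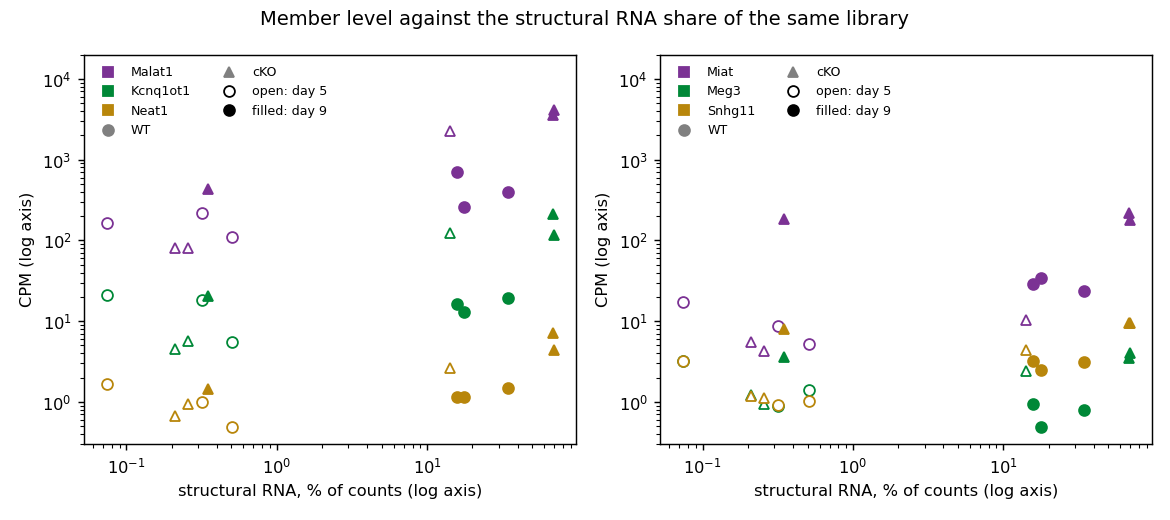
CPM of 3 members in each panel against the structural RNA share of the same library in % of counts, both on log axes, with circles for WT, triangles for cKO, open symbols for day 5 and filled for day 9. At left, Malat1, Kcnq1ot1 and Neat1 of cKO at day 9 are high in the libraries with 68.3% and 69.7% and near WT in the one with 0.349%, and at right Miat, Meg3 and Snhg11 are high in all 3.

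RSEM divides each gene's counts by a length weighted over its isoforms, so count divided by TPM shows which lengths it assigned. Set to bases on genes with 1 annotated transcript of at least 3000 bases (355 genes at day 5 and 199 at day 9), the Neat1 length at day 9 was 4323, 6177 and 4958 bases in WT and 10396, 3062 and 12432 bases in cKO. Annotated Neat1 transcripts range from 711 to 20771 bases, and the long values lay in the 2 cKO libraries with high Neat1 CPM. At day 5 it was 2526 to 3701 bases in all 6 libraries. At day 9 the groups overlapped (exact permutation p = 0.4, where the smallest p possible is 0.1), and each value rests on 28 to 57 counts.

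Miat's length at day 9 was 8707 ± 171 bases in WT and 8578 ± 92 bases in cKO (SD, n = 3), close to its longest annotated form of 9163 bases in both groups. Malat1 had 4653 ± 876 bases in WT and 5363 ± 491 bases in cKO, and Meg3 had 1721 ± 205 and 1415 ± 441 bases. The groups overlapped for each of these 3 genes. Exact permutation tests gave p of 0.3, 0.3 and 0.4 in bases, and 0.7, 0.2 and 0.4 for lengths relative to the median gene. The smallest p this test can give here is 0.1, so no difference could have passed and the test cannot decide whether lengths differed. Kcnq1ot1 had 84865 ± 590 bases in WT at day 9, although M21 lists 1 transcript of 93092 bases, so the authors' transcript models differed from M21 for this gene.

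**Figure D4:**
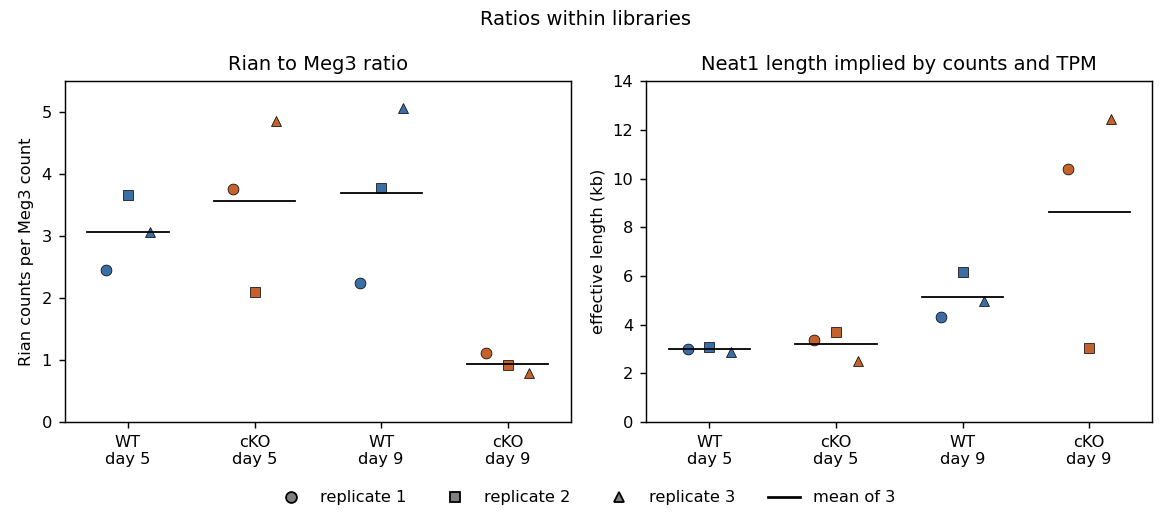
Left, Rian counts per Meg3 count, and right, the Neat1 length in kb implied by counts and TPM, 1 point per library with the line at the mean of 3 (blue WT, orange cKO). The day 9 cKO libraries hold 0.8 to 1.12 Rian counts per Meg3 count against 2.24 to 5.06 in WT, and the Neat1 length is above 10 kb in cKO replicates 1 and 3 alone.

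At day 5 no member passed the test in either direction. Over all 14849 genes tested then, 0% passed as higher and 0.00673% as lower, the 1 gene being Lmnb1. No member had cKO libraries that all lay above or all below WT, patterns that 1.5% and 1.35% of genes showed.

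Miat at day 5 was at 17.3, 8.65 and 5.20 CPM in WT, against 5.59, 10.4 and 4.27 CPM in cKO. The groups overlapped, and the log2 fold change was -0.63 ± 0.53, which became -1.09 without cKO replicate 2 and -0.036 without WT replicate 1. Meg3 was at 3.21, 0.893 and 1.41 CPM in WT, against 1.20, 2.40 and 0.937 CPM in cKO, Rian at 3.27 to 7.86 CPM over all 6 libraries, and Snhg11 at 3.18, 0.924 and 1.03 CPM in WT, against 1.17, 4.42 and 1.11 CPM in cKO. For Miat, Meg3 and Snhg11 the highest library of each group was WT replicate 1 and cKO replicate 2. Summed marker levels were also highest in these 2 libraries for several lists, but not for all. The 20 neuronal markers summed to 1401 and 1505 CPM there against 657 to 831 CPM in the other 4 libraries, with Slc17a6 at 0 in all 6. The microtubule gene Map2 made up 737 and 882 CPM of these sums, whereas Tubb3, the neuronal tubulin gene, was lowest of its group in both (21.2 and 16.2 CPM). The 11 progenitor markers summed to 5475 and 5461 CPM against 4005 to 5240 CPM, and the 11 cycling genes to 3095 and 3122 CPM against 2594 to 2800 CPM. Of the cycling genes, Mki67 (591 and 566 CPM), Top2a (586 and 709 CPM) and Ccna2 were highest of their group in both libraries. Mcm2, Mcm3, Mcm5, Cdk1, Plk1 and Aurkb were lowest of their group in both, with Mcm5 at 216 and 193 CPM. The 16 oligodendrocyte lineage markers went the other way, with the lowest sum of each group in these 2 libraries (3172 and 2602 CPM). The 12 astrocyte markers had the lowest WT sum in WT replicate 1 (2168 CPM) and the highest cKO sum in cKO replicate 2 (2513 CPM). The part of any cell type in these values was not tested.

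Malat1 at day 5 was at 162, 222 and 109 CPM in WT, against 81.5, 2251 and 80.7 CPM in cKO. Kcnq1ot1 was at 21.2, 18.1 and 5.54 CPM in WT, against 4.53, 122 and 5.62 CPM in cKO. Neat1 was at 1.67, 0.986 and 0.482 CPM in WT, against 0.672, 2.60 and 0.937 CPM in cKO. For all 3 genes cKO replicate 2 was the highest library and set the direction of the mean change. Without it the log2 fold change of Malat1 went from 2.29 to -1.03, that of Kcnq1ot1 from 1.56 to -1.57, that of Neat1 from 0.42 to -0.40 and that of Snhg11 from 0.38 to -0.61, with no call in either case.

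Whether the change differed between days was tested on all 12 libraries by subtracting the change at day 5 from that at day 9. Miat was the 1 member past the threshold, at 3.37 ± 0.605 (edgeR adjusted p = 0.00583). Over the 15323 genes tested, 2.57% passed as higher and 7.71% in either direction. Meg3 was at 2.61 ± 0.719 (edgeR adjusted p = 0.0516), and Rian, Snhg11, Kcnq1ot1, Neat1 and Malat1 had values from 0.25 to 1.31 that did not pass. Without cKO replicate 2 of day 5, 5 members passed: Miat at 3.83, Meg3 at 3.11, Snhg11 at 2.21, Kcnq1ot1 at 4.40 and Malat1 at 3.58.

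Cell type markers moved at day 9 together with the members. Of 16 tested neuronal markers 9 rose and 0 fell, with summed levels of 359 to 498 CPM in WT against 1051 to 1150 CPM in cKO, and with Dlx5 and Slc17a6 at 0 in every day 9 library. The neural cell adhesion gene Ncam1 rose from 172 to 480 CPM and the neuronal RNA-binding gene Elavl3 from 11.6 to 38.9 CPM. Among oligodendrocyte lineage markers, 10 of 14 tested rose and 4 fell (summed level 3039 to 3498 CPM in WT against 4470 to 5553 CPM in cKO), and of 12 astrocyte markers 9 rose and 1 fell (2387 to 3082 CPM and 5335 to 6474 CPM). Among those that rose, the myelin regulator Myrf went from 11.7 to 157 CPM and Gfap, an astrocyte filament gene, from 16.1 to 334 CPM. Of 11 cycling genes 10 fell, and of 11 progenitor markers 2 rose and 6 fell, among them Nes, from 302 to 77.1 CPM. The part of these cell types in the rise of Miat, Meg3 and Snhg11 was not tested. Over all genes tested at day 9, 21% passed as higher and 22.6% as lower, and the median log2 fold change was 0.01.

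Proteins of the nuclear bodies were described at day 9 by counts alone, and no list was tested as a set. Over all genes tested at day 9, 21% passed as higher and 22.6% as lower. Of 33 tested nuclear speckle proteins 15 rose and 5 fell, with a median log2 fold change of 0.25. The speckle core protein gene Son rose by 1.01 ± 0.188 and the splicing factor gene Srsf11 by 0.64 ± 0.102 (edgeR adjusted p of 0.00476 and 0.00211). Of 27 paraspeckle proteins 2 rose and 8 fell, with a median of -0.13. Rbm14 fell by 0.68 on the log2 scale and Hnrnpa1 fell by 0.53 (edgeR adjusted p of 0.00211 and 0.0115). Of 12 Polycomb proteins 3 rose and 3 fell, the largest change being in Phf19, which fell by 2.50 (edgeR adjusted p = 0.000136).

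Neighbours of the members were followed by domain at day 9, beside shares of 21% higher and 22.6% lower over all genes tested. Of 6 other tested genes in a list of the Dlk1-Dio3 domain and genes flanking it, 0 rose and 1 fell. The flanking gene Wars, a tRNA synthetase gene, fell by 0.28 (edgeR adjusted p = 0.037). Dlk1, the paternally expressed ligand gene of the domain, had 0.443 CPM in WT against 0.479 CPM in cKO, and Dio3 was at 0 in all day 9 libraries. Of 8 tested genes in a list of the Kcnq1 domain and genes near it, 1 rose and 4 fell. Cdkn1c, a cell cycle inhibitor gene that Kcnq1ot1 is known to silence in cis, rose from 16.04 ± 1.91 to 49.1 ± 4.53 CPM, with cKO libraries at 49.1, 53.7 and 44.6 CPM (edgeR adjusted p = 8.58e-05). H19, an imprinted noncoding RNA gene near that domain but outside it, fell from 6.56 ± 1.30 to 1.86 ± 0.55 CPM (edgeR adjusted p = 0.00129). Kcnq1 itself, on the strand opposite Kcnq1ot1, was at 0 in all WT libraries and 2 of 3 cKO libraries at day 9. Of 14 tested genes in a list of imprinted genes, which also holds Cdkn1c and H19, 3 rose and 5 fell, among them Mest, from 125.7 ± 18.7 to 32.3 ± 5.85 CPM (edgeR adjusted p = 8.66e-05). Of 13 tested neighbours of Malat1 and Neat1 0 rose and 7 fell, among them Frmd8, by 0.90 on the log2 scale. Of 6 neighbours of Miat 1 rose and 2 fell, and of 4 neighbours of Snhg11 2 rose and 1 fell.

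**Figure D5:**
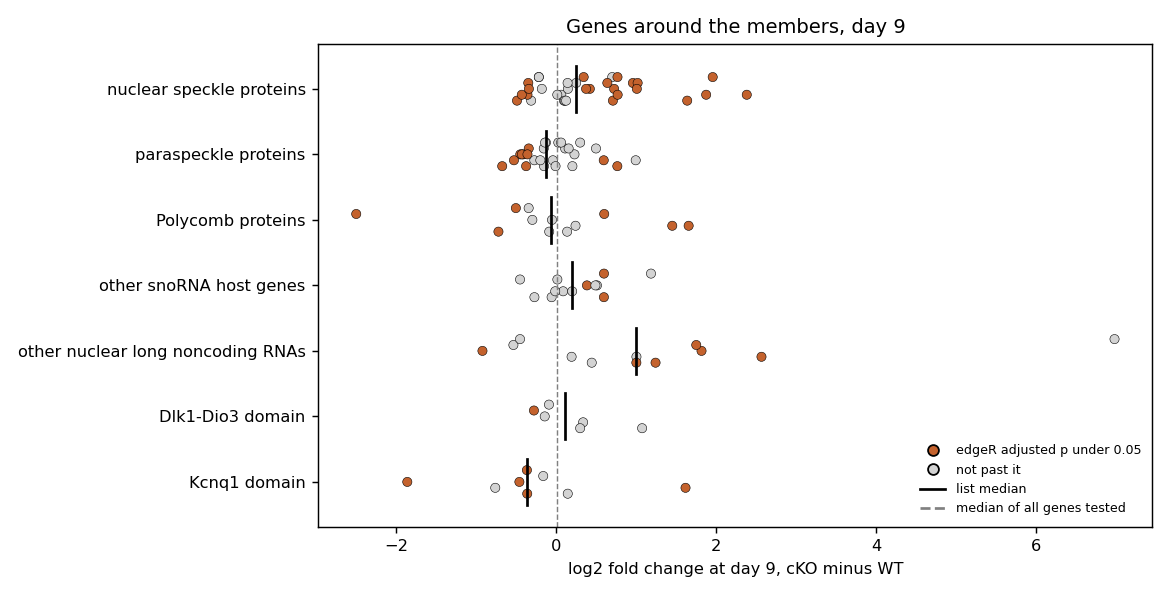
Log2 fold change at day 9 (cKO minus WT) of each tested gene in 7 lists, orange where edgeR's adjusted p was under 0.05 and grey elsewhere, with the list median as a bar and the median of all genes as a dashed line. The bar lies at 0.25 for nuclear speckle proteins, at -0.13 for paraspeckle proteins and at 1.002 for other nuclear long noncoding RNAs.

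Among 12 other tested nuclear long noncoding RNAs 5 rose and 1 fell at day 9, with a median of 1.002, and the list holds Gm26917, which is also 1 of the structural RNA features. Xist, the RNA that coats the inactive X chromosome, had 127 ± 52.7 CPM in WT, against 922, 439 and 888 CPM in cKO, a log2 fold change of 2.57 ± 0.441 (edgeR adjusted p = 0.0069). Firre, an X-linked RNA with nuclear repeats, rose from 4.43 ± 0.159 to 15.6 ± 1.23 CPM (edgeR adjusted p = 5.55e-05), with cKO replicate 2 at 15.2 CPM beside 16.99 and 14.6 CPM. Pantr1 fell by 0.92 (edgeR adjusted p = 0.00153). Of 13 other snoRNA hosts 3 rose and 0 fell, with a median of 0.20, against 1.61 for Snhg11. Over all 1139 annotated long noncoding RNA genes tested at day 9, 268 rose and 42 fell, with a median of 0.85. Among all 14617 genes tested, 21% passed as higher and 22.6% as lower, with a median of 0.01. The class was thus near all genes in its share of rises, and differed in its few falls and its median. Without Malat1, annotated long noncoding RNAs took 1.74% and 1.98% of counts outside structural RNA in cKO replicates 1 and 3. They took 0.76% in cKO replicate 2 and 0.679%, 0.716% and 0.673% in WT. What part structural RNA had in the difference between this class and all genes was not tested.

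The genes most like each member over the 12 libraries were found by Pearson's r of log2 CPM, centred within each day. Malat1 and Kcnq1ot1 had the same 3, Grk4, Fgd4 and Vmn1r58, with r of 0.962 to 0.993. Miat was most like Dnm3 and Csmd1 (r of 0.976 and 0.973), and Meg3 most like Ppfibp1, Firre and Ugt8a (r of 0.966 to 0.973). Snhg11 was most like Orc4, Chpt1 and Ccnt2 (0.986 to 0.99), Neat1 most like Pot1b, Prdm11 and Psg16 (0.967 to 0.976), and Rian most like Ltv1, Tbce and Eif2ak4 (0.919 to 0.921). Between members r was 0.956 for Malat1 and Kcnq1ot1, 0.945 for Neat1 and Kcnq1ot1, 0.915 for Meg3 and Miat, and 0.273 for Malat1 and Rian. All these values share libraries, depth and the group difference, and are given as descriptions.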

How the data were processed

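The authors deposited expected counts per gene and, separately, TPM values (relative abundances that take transcript length into account) for 6 libraries at each day. Per the submitters' processing notes RSEM, Bowtie2 and the build mm10 were used, and per the file headers reads were single-end. The annotation is not given in the sources used here, nor is the use of strand, so reads of Kcnq1ot1 and Kcnq1 cannot be told apart by strand. The day 5 tables list Ensembl identifiers, 97.96% of them matched here to symbols, and the day 9 tables list symbols.

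The deposited expected counts were rounded and fitted with edgeR 4.0.16 under R 4.3.3 (filterByExpr, TMM, robust quasi-likelihood), each day alone and for the day difference on all 12 libraries. Benjamini-Hochberg adjustment ran over all genes tested, with a threshold of 0.05. Standard errors came from the F statistic. Ratios and lengths used exact two-sided permutation tests, and lengths were set only where TPM was at least 0.2 in every library, a limit chosen after values were seen. The code was tested on simulated data. Replicates differed by more than sampling noise in every pair (lowest chi-square per degree of freedom 5.3), so none was counted as a duplicate. That lowest value was for cKO replicates 1 and 3 of day 9, which gave 1623 and 1577 against replicate 2.

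Alternatives were DESeq2 1.42.0, limma 3.58.1 (voom, and log2 TPM with pseudocounts of 1 and 0.1), other scalings, no filter, a replicate block and libraries left out. Named genes were the 8 members, Lmnb1, up to 4 genes per list with the smallest adjusted p, and all listed for the 2 imprinted domains. The 3 genes most like each member with a mean of at least 5 CPM were also named. One gene that this rule names is not reported here. Members and lists were chosen with earlier results of these data known.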

Additional observations from a re-analysis of the deposited data

Results flagged for a closer look

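Miat was the 1 member whose change differed between the days in a test of that difference. Its day 9 change exceeded its day 5 change by 3.37 on the log2 scale (SE 0.605, edgeR adjusted p = 0.00583). At day 5 the cKO libraries lay within the range of WT or just below it, and at day 9 all 3 cKO libraries were above all 3 WT libraries. The value stayed between 2.76 and 3.83, with an edgeR adjusted p of at most 0.0227, when each of the 12 libraries was left out in turn.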

How the results depend on the processing

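The rise of Miat, Meg3 and Snhg11 at day 9 passed in 14 of 14 count-based alternatives other than library totals, and that of Neat1 in 6 of 14. Library totals alone and all 3 TPM fits called 0 members at day 9. They moved the median of all genes to -0.51 (totals), -0.91 (TPM + 1), -1.10 (TPM + 0.1) and -0.15 (TPM + 1, no filter). Over all genes the TPM fits called 36 higher and 287 lower, 42 and 413, and 4 and 44. Relative to that median Miat stood at 2.65, 2.48, 2.78 and 1.72. Rian turned to -0.067, -0.29, -0.45 and -0.29. Leaving out 1 library gave 3 to 6 members called at day 9 (6 without cKO replicate 2) and, over all genes, from 1760 higher (without WT replicate 2) and 2279 lower (without cKO replicate 1) to 3666 and 3841 (without cKO replicate 2), and leaving out cKO replicates 1 and 3 turned Malat1 to -0.092. At day 5, Malat1 ranged from -1.03 to 2.89, Kcnq1ot1 from -1.57 to 2.15, Neat1 from -0.40 to 0.93, Snhg11 from -0.61 to 1.19, Meg3 from -0.80 to 0.40, Rian from -0.37 to 0.31 and Miat from -1.09 to -0.036 when 1 library was left out. Without WT replicate 1 and cKO replicate 2 of day 5, Malat1 was -1.03, Kcnq1ot1 -1.22 and Rian 0.26. Snhg11 was -0.10 under unfiltered TPM.

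For the day difference the number of members called was 2 with DESeq2, with RLE scaling, without structural RNA, and without the 4 libraries named above (chosen after seeing the data), and 1 to 5 with 1 library left out. Over all genes it was 394 higher and 787 lower, 1176 and 1234 without cKO replicate 2 of day 5, 69 and 316 with library totals and 81 and 241 with the replicate block. Malat1 ranged from -0.29 to 3.58 with 1 library left out and was -0.79 with library totals, and Neat1 was -0.016 without the 4 libraries. The cause was not tested. The log2 ratio of Rian to Meg3 at day 5 was -0.10 from TPM and -0.10 to 0.50 with 1 library left out. Lengths relative to the median gene, with 1 library left out, differed at day 5 by -0.014 to 0.21 for Neat1, -0.19 to 0.073 for Meg3 and -0.35 to 0.16 for Miat, and at day 9 by -0.073 to 0.007 for Miat and -0.10 to 0.048 for Snhg11.

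Replicate numbers did not pair the samples: same-numbered WT and cKO deviations correlated at -0.72, -0.50 and 0.53 at day 5 and at -0.001, -0.20 and -0.06 at day 9. With the replicate block the calls over all genes went from 1 to 0 at day 5 and from 6378 to 5514 at day 9, 3 members were called at day 9, and Neat1 was at 1.51 (edgeR adjusted p = 0.0926). Few counts limit Neat1, Meg3, Snhg11 and Rian in cKO replicates 1 and 3, which held 20 to 68 counts of each.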
